A study of Mus musculus with 12 samples.

Results

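The genes of the transforming growth factor-β (TGF-β) and bone morphogenetic protein (BMP) pathways were followed in RNA-seq libraries of a pair of mouse striatal cell lines. Members were taken by gene name: Tgfb1 to Tgfb3 and their receptors, the Bmp and Gdf ligands, the inhibin and activin subunits, the BMP and activin receptors, the Smads, the Ids, the latent TGF-β binding proteins, and secreted antagonists such as Nog, Grem1, Chrd, Fst, Fstl1 and Fstl3. The names matched 61 of the 29428 genes in the table. Of these 61 members, 44 reached at least 0.5 TPM (a length- and depth-scaled transcript abundance) in at least 3 libraries and were tested, and 35 reached that level in each of the 12 libraries.

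STHdhQ7 cells (genotype STHdhQ7/Q7, labelled normal) and STHdhQ111 cells (STHdhQ111/Q111) carry 7 and 111 glutamines in huntingtin, the protein that is expanded in Huntington's disease (HD). Cells of each line were left nontreated (Q7-C and Q111-C) or received interferon-γ (IFNγ, 100 ng/mL) together with lipopolysaccharide (LPS, 5 μg/mL) for 24 h (Q7-T and Q111-T), a neuroinflammatory challenge, and each of the 4 groups has 3 libraries. All cells were immortalized and grown at 33 °C in serum-containing medium. Each genotype is represented by 1 line, so genotype and line cannot be told apart. The libraries of a group are described as biological replicates in the study, and the labels number them without saying whether they came from separate cultures, so the p-values measure the spread between these libraries.

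In this pathway a secreted ligand dimer brings together type I and type II receptor kinases, which phosphorylate receptor Smads that then enter the nucleus with Smad4. TGF-β and activin act mainly through Smad2 and Smad3, and BMPs through Smad1, Smad5 and Smad9, with the Id genes as classical BMP targets. TGF-β is stored in the matrix in latent form by the Ltbp proteins, and antagonists such as follistatin, gremlin and chordin trap ligands outside the cell.

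Library depth was between 57505990 and 96417834 estimated counts, and with about 4 counts per read pair, as judged from the most frequent low counts, this is 14376498 to 24104458 read pairs. Libraries within groups stood apart from each other to an unequal degree: Q7-T replicate 2 was nearer to Q7-C replicate 1 than to either library of its own group, and it had the lowest TPM of its group in 38 of the 44 members tested (86.4%, against 69.3% of all genes tested). Q7-C replicate 1 was the lowest of its group in 33 members (75.0%, against 65.9%) and Q111-T replicate 2 in 26 (59.1%, against 60.7%). The member calls that change without these 3 libraries together are listed below. The label describes the cells as neuronal. Of 5 neuronal markers in the table, Snap25, Syt1 and Dcx were at or under 12 estimated counts (3 read pairs) in every library, whereas Tubb3 was at 16.9, 74.6, 3.91 and 24.7 TPM and Map2 at 7.93, 2.13, 5.90 and 5.61 TPM on average in Q7-C, Q7-T, Q111-C and Q111-T. Tubb3 was lower in STHdhQ111 in both conditions and rose on treatment in both lines, and Map2 fell on treatment in STHdhQ7 and was higher in Q111-T vs. Q7-T. The summed TPM of 6 mesenchymal marker genes was 4240 to 4840 in Q7-C and 3290 to 3710 in Q7-T, against 3670 to 3830 in Q111-C and 1500 to 1620 in Q111-T. The sum hides opposite differences between the nontreated lines, where Col1a1, Col1a2 and Col3a1 were higher and Acta2 lower in STHdhQ111 (median log2 fold change of the 6 markers 0.90). The part of these markers in the results was not tested. In bulk RNA, fewer cells with a transcript and less of it per cell cannot be told apart.

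The lines differed across ligands, matrix proteins, receptors and antagonists of the pathway, whereas the core Smads were among the members that were not called. A differentially expressed gene (DEG) had an adjusted p under 0.05 (quasi-likelihood test of edgeR, adjusted by Benjamini-Hochberg over 16127 genes) and at least a 2-fold difference. In Q111-C vs. Q7-C, 11 of the 44 members were higher and 8 lower, where 7.62% of all genes tested were called higher and 7.61% lower. In Q111-T vs. Q7-T, 11 were higher and 7 lower, beside a background of 13.3% and 11.2%. In STHdhQ7 cells treatment raised 1 member and lowered 1 (background 2.93% and 1.11%), and in STHdhQ111 cells it raised 6 and lowered 3 (8.28% and 2.96%).

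The treatment effect differed between the lines (the interaction) for 2 members in the upward and 1 in the downward direction, where 3.52% and 1.2% of all genes were called. Acvrl1, Bmp7 and Bmp8a reached the expression minimum only in STHdhQ111 libraries and Bmp8b only in STHdhQ7 libraries, so the filter itself selected these for a difference between the lines, and Bmp8a, which reached the minimum in Q111-T alone, for a difference of Q111-T from Q7-T and from Q111-C. Among the remaining 40 members the counts were 9 higher and 7 lower between nontreated lines, 8 and 6 between treated lines, 1 and 1 after treatment in STHdhQ7, 4 and 3 after treatment in STHdhQ111, and 2 and 1 in the interaction. The libraries of the groups did not overlap in TPM for 29 of 44 members between nontreated lines (51.4% of all genes), 27 between treated lines (46.3%), 7 on treatment of STHdhQ7 (14.4%) and 27 on treatment of STHdhQ111 (49.6%).

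The median log2 fold change of the 44 members was 0.03 between nontreated lines, 0.36 between treated lines, -0.24 on treatment of STHdhQ7, 0.08 on treatment of STHdhQ111 and 0.25 in the interaction, and that of all genes tested was -0.02, -0.03, 0.00, -0.01 and -0.02. Log2 fold changes refer to counts scaled by TMM. On the TPM scale, as log2(TPM + 0.5), the median of all genes is shifted by 0.27 between nontreated lines, 0.34 between treated lines, -0.16 on treatment of STHdhQ7 and -0.10 on treatment of STHdhQ111, so ratios of TPM between the lines lie above the fold changes. On that scale limma called 1489 genes higher and 767 lower between nontreated lines, where edgeR called 1229 and 1227, and 2940 and 777 between treated lines, where edgeR called 2145 and 1814.

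**Figure D1:**
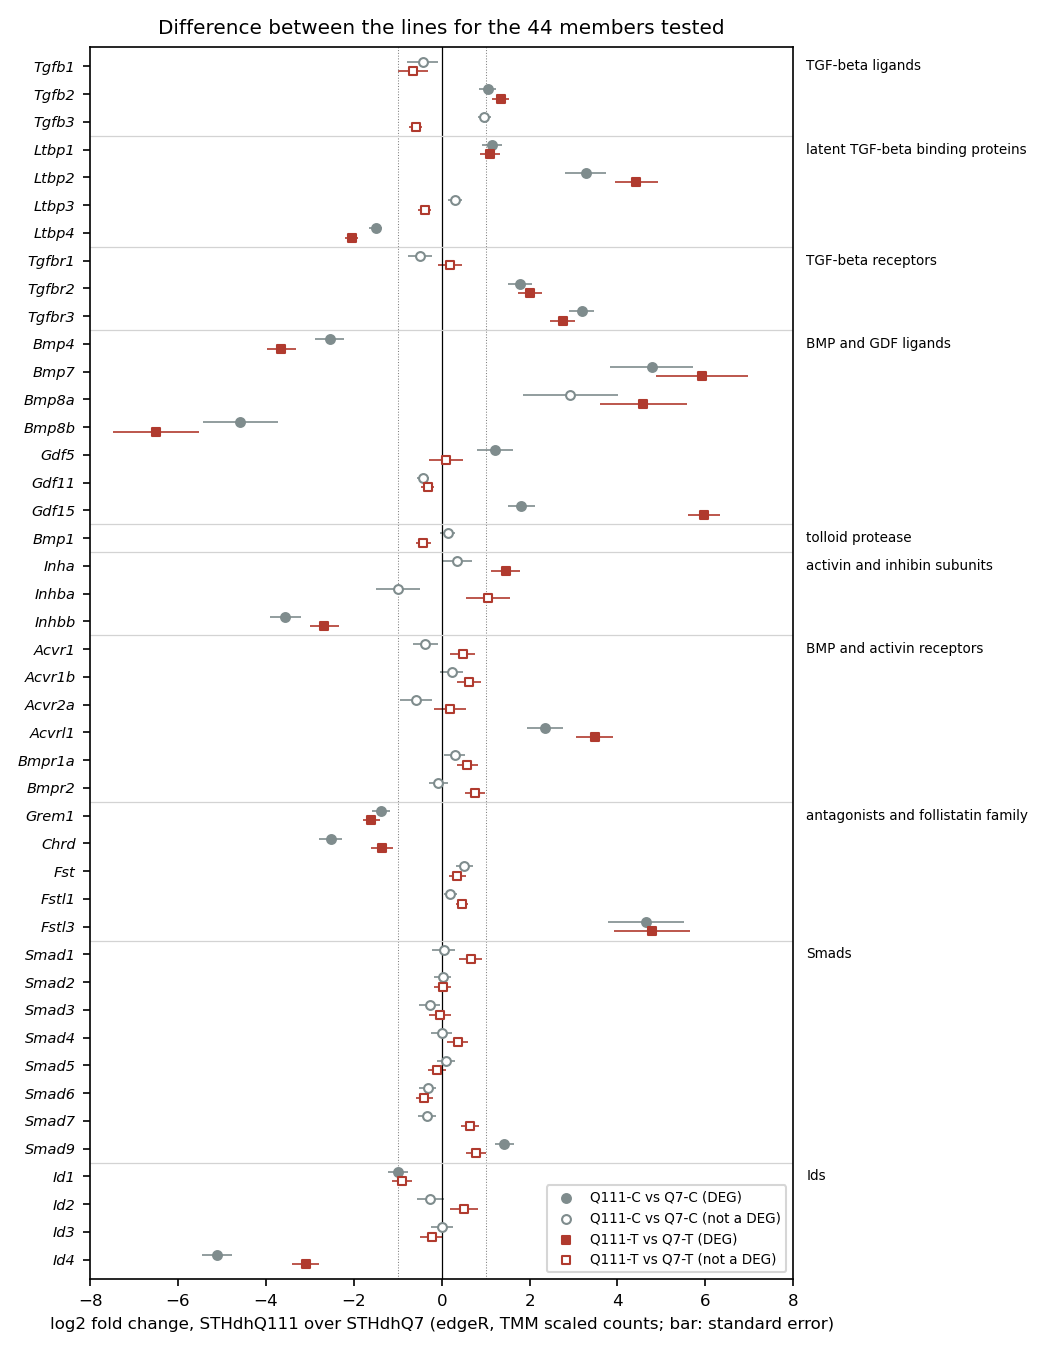
Log2 fold change between the lines (x axis, STHdhQ111 over STHdhQ7, edgeR on TMM scaled counts) for the 44 members tested, grouped by role, in nontreated cells (circles) and treated cells (squares), with standard errors. Filled symbols are DEGs, dotted lines mark a 2-fold difference, and the Smads other than Smad9 lie between these lines while Ltbp2, Tgfbr3, Gdf15 and Fstl3 lie far to the right and Id4, Inhbb and Bmp4 far to the left.

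Promoter sequences were taken from RefSeq (GRCm38.p6) for 5 of the members that were called, as 250 bases before the annotated start: Tgfb2 at chr1:186705990-186706239, Tgfbr2 at chr9:116175364-116175613, Gdf15 at chr8:70632457-70632706 and Inhbb at chr1:119422249-119422498 (all on the minus strand), and Id4 at chr13:48260866-48261115 (plus strand). Each is written 5′ to 3′ in the direction of transcription. Tgfb2 and Tgfbr2 are shown as a ligand and a receptor among those that were higher in STHdhQ111 in both conditions, and Gdf15, Inhbb and Id4 because they responded to treatment. Capitals mark matches, on either strand, to CAGAC (the Smad-binding element), GGCGCC (a GC-rich Smad site), the interferon-stimulated response element (ISRE), TTCNNNGAA (the gamma-activated site, GAS) or the NF-κB consensus.
Tgfb2: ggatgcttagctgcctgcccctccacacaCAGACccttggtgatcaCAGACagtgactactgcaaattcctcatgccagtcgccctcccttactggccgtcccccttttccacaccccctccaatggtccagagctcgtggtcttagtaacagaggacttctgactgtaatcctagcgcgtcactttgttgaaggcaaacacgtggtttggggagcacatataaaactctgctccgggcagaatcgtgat
Tgfbr2: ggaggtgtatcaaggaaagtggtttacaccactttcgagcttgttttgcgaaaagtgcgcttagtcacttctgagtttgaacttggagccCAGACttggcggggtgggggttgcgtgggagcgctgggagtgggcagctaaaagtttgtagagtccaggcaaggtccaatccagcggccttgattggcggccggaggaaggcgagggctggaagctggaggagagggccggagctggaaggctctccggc
Gdf15: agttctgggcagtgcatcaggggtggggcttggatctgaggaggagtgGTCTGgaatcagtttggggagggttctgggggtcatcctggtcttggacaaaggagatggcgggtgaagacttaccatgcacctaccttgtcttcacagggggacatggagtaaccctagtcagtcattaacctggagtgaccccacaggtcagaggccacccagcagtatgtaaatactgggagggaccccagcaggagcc
Inhbb: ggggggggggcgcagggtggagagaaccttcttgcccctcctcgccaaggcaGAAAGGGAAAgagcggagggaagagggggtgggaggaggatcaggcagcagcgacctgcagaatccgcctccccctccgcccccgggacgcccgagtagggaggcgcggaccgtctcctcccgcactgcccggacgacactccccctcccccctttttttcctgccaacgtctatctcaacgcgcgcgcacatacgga
Id4: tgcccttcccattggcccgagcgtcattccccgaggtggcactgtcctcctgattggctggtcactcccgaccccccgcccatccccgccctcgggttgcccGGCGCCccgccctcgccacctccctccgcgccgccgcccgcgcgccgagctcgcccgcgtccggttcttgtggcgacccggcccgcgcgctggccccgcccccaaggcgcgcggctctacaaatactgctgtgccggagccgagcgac
The matches are CAGAC in Tgfb2, Tgfbr2 and Gdf15, the ISRE letters in Inhbb, and GGCGCC in Id4. Tgfb2 has 2 such matches, which begin 221 and 204 bases before the start, and the other promoters have 1 each. Of the 61 members, 44 had an entry, with 55 promoters in all. CAGAC was found in 26 of these 55 (47.3%, against 42.2% of all 32851 promoters in the table), GGCGCC in 12 (21.8%, against 9.59%), the ISRE letters in 2 (3.64%, against 2.98%), the NF-κB consensus in 1 (1.82%, against 3.9%) and the GAS letters in 0 (against 7.02%). A match describes the letters of this window only. Gdf15 has a second promoter entry, at chr8:70632096-70632345 inside the gene, which is not shown. For Tgfbr2 and Id4 the 30 bases after the annotated start were found in no transcript of the gene in the GENCODE annotation. The Id4 window also ends before the gene start at chr13:48261228.

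Among the TGF-β ligands, Tgfb2 was higher in STHdhQ111 cells in both conditions, Tgfb3 fell about 4-fold on treatment in STHdhQ111 cells, and Tgfb1 was not called in any comparison. Tgfb2 (ENSMUSG00000039239, chr1:186622792-186705989) was at 3.90, 6.59 and 7.53 TPM in the Q7-C libraries, 4.0, 1.49 and 3.51 in Q7-T, 12.9, 17 and 15.5 in Q111-C, and 10.1, 8.12 and 10.6 in Q111-T. Each STHdhQ111 library was above each STHdhQ7 library. The difference on the log2 scale was 1.05 (SE 0.20, adjusted p = 0.00222, edgeR) in nontreated cells and 1.34 (SE 0.20, adjusted p = 3.18e-04) in treated cells. Without Q7-C replicate 1 the first was 0.93 (adjusted p = 0.009), under 2-fold. The promoter shown above holds the pair of CAGAC letters for this gene.

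Tgfb3 (ENSMUSG00000021253, chr12:86056745-86079041), which encodes the third TGF-β isoform, was at 15.0, 24.1 and 25.3 TPM in Q7-C and 51.2, 54.6 and 47.9 in Q111-C. After treatment it was at 15.5, 8.08 and 16.5 in Q7-T and 11.4, 9.01 and 13.8 in Q111-T. The Q111-C libraries stood above all others, and the treated libraries of the lines overlapped. In STHdhQ111 cells Tgfb3 fell by 2.08 on the log2 scale after treatment (SE 0.15, adjusted p = 3.18e-06), while in STHdhQ7 cells the value was -0.52 (SE 0.15, adjusted p = 0.0826). This difference in treatment effect was itself called (interaction -1.56, SE 0.21, adjusted p = 0.00179, edgeR), but not under limma on log2(TPM + 0.5), log2(TPM + 0.1) or log2(TPM + 1), where it was -1.42 to -1.47 with an adjusted p of up to 0.0809. Between the nontreated lines Tgfb3 differed by 0.97 (SE 0.15, adjusted p = 6.35e-04), just under the 2-fold limit. It passed the limit without Q7-C replicate 2 or 3, Q111-C replicate 3 or any 1 Q111-T library, with values from 1.002 to 1.05. In Q111-T vs. Q7-T Tgfb3 was at -0.60 (SE 0.15, adjusted p = 0.00904). Tgfb3 overlaps Ttll5 on the other strand, which was at 3.08 ± 0.645, 2.17 ± 0.573, 2.79 ± 0.333 and 1.99 ± 0.557 TPM (SD, n = 3) in Q7-C, Q7-T, Q111-C and Q111-T.

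Tgfb1 (ENSMUSG00000002603, chr7:25687002-25705077) was the most abundant TGF-β ligand in STHdhQ7 cells, at 34.8 ± 3.15 TPM in Q7-C and 26.1 ± 8.08 in Q7-T, and stood at 32.9 ± 0.461 in Q111-C and 24.3 ± 1.65 in Q111-T (mean ± SD of 3 libraries). Its log2 fold changes were -0.43 and -0.65 between the lines and -0.13 and -0.34 after treatment, with adjusted p between 0.161 and 0.915. The Tgfb1 values that involve Q7-T moved with single libraries, though none reached 2-fold: without Q7-T replicate 2 Tgfb1 was at -0.006 in Q111-T vs. Q7-T and -0.757 in Q7-T vs. Q7-C, and without Q7-T replicate 1 it was at 0.151 in the latter. As TPM is per length, the 3 ligands can be added: their sum was 57.3 to 65.5 TPM in Q7-C and 39.4 to 44.8 in Q7-T, against 96.3 to 104 in Q111-C and 39.8 to 50.4 in Q111-T. Tgfb3 made up 49.7% to 52.6% of the sum in Q111-C but 22.6% to 27.4% in Q111-T, and 26.1% to 38.5% in Q7-C. The levels of Tgfb1 overlapped between Q7-C and Q111-C.

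The latent TGF-β binding proteins, which hold the latent ligand in the matrix, diverged between the lines, with Ltbp1 and Ltbp2 higher and Ltbp4 lower in STHdhQ111 cells. Ltbp2 (ENSMUSG00000002020, chr12:84783212-84876532) was at 0.289, 0.536 and 0.292 TPM in Q7-C, 1.03, 0.162 and 1.09 in Q7-T, 4.07, 4.13 and 5.26 in Q111-C, and 25.2, 12.1 and 23.0 in Q111-T. It was higher in STHdhQ111 by a log2 fold change of 3.28 (SE 0.47, adjusted p = 3.35e-04, edgeR) in nontreated and 4.43 (SE 0.48, adjusted p = 3.95e-05) in treated cells. Treatment raised it in STHdhQ111 cells by 2.23 (SE 0.44, adjusted p = 0.00385). In STHdhQ7 cells the value was 1.08 (SE 0.44, adjusted p = 0.25) and depended on 1 library, with 1.49 (adjusted p = 0.00862) without Q7-T replicate 2. The interaction for Ltbp2 was not called (1.15, SE 0.61, adjusted p = 0.325), so the treatment effects were not shown to differ, although without the 3 libraries that stood apart it was 1.002 (adjusted p = 0.0469).

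Ltbp1 (ENSMUSG00000001870, chr17:75005568-75392512) was at 18, 31.2 and 40.0 TPM in Q7-C, 22.5, 7.76 and 19.4 in Q7-T, 75.6, 79.2 and 82.9 in Q111-C, and 48.9, 30.5 and 55.4 in Q111-T. The lines did not overlap within a condition, and Q111-T replicate 2 at 30.5 TPM lay within the range of Q7-C. The log2 fold change was 1.14 (SE 0.23, adjusted p = 0.0041) in nontreated and 1.10 (SE 0.23, adjusted p = 0.00354) in treated cells. Both calls sat close to the 2-fold limit: the first was 0.99 without Q7-C replicate 1 (adjusted p = 0.0168), and the second was 0.90 without Q7-T replicate 2 (adjusted p = 0.00634) and 0.99 without Q111-T replicate 3 (adjusted p = 0.0165).

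Ltbp4 (ENSMUSG00000040488, chr7:27305136-27337692) was at 17.2 ± 2.08 TPM in Q7-C and 12.6 ± 3.34 in Q7-T, against 7.55 ± 0.297 in Q111-C and 3.99 ± 0.99 in Q111-T (mean ± SD of 3 libraries), without overlap between the lines. It was lower in STHdhQ111 by -1.501 (SE 0.14, adjusted p = 2.09e-05) and -2.05 (SE 0.15, adjusted p = 1.97e-06) on the log2 scale, and these calls held with each library left out in turn. Ltbp3 (chr19:5740904-5758532) did not pass the test between the lines, but treatment lowered it in STHdhQ111 cells from 63.5 ± 0.734 to 25.3 ± 6.99 TPM (-1.25, SE 0.15, adjusted p = 1.38e-04). The corresponding change in STHdhQ7 cells was -0.56 (SE 0.15, adjusted p = 0.058), and the interaction was not called (-0.69, SE 0.21, adjusted p = 0.087). Of the summed Ltbp TPM, Ltbp2 made up 2.66% to 3.30% in Q111-C and 19.2% to 23.0% in Q111-T, against at most 0.579% in Q7-C and 1.70% in Q7-T.

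**Figure D2:**
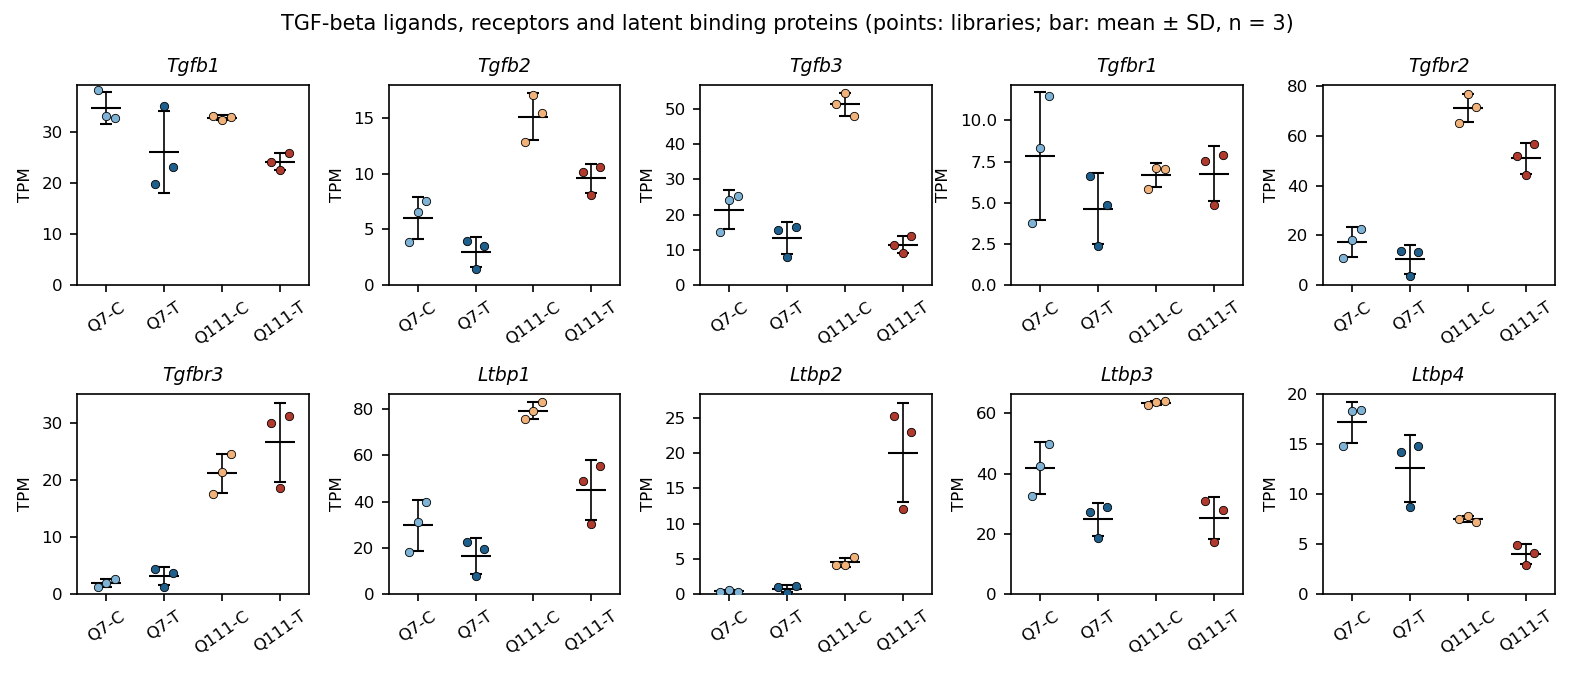
TPM (y axis, linear, from 0) of the TGF-β ligands, their receptors and the latent TGF-β binding proteins in each library (points), by group, with the mean and SD of the 3 libraries (bars). Tgfb3 is high in Q111-C alone at 47.9 to 54.6 TPM, Tgfbr2 and Tgfbr3 are high in both STHdhQ111 groups, and Ltbp2 rises from 4.07 to 5.26 in Q111-C to 12.1 to 25.2 in Q111-T.

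Of the 3 TGF-β receptors, Tgfbr2 and Tgfbr3 were higher in STHdhQ111 cells and Tgfbr1 was not called. Tgfbr2 (ENSMUSG00000032440, chr9:116084293-116175360), the type II kinase that binds the ligand first, was at 10.7, 18.1 and 22.6 TPM in Q7-C, 13.9, 3.77 and 13.4 in Q7-T, 65.1, 76.7 and 71.8 in Q111-C, and 51.8, 44.3 and 56.9 in Q111-T. Every STHdhQ111 library was above every STHdhQ7 library. The log2 fold change was 1.78 (SE 0.27, adjusted p = 5.20e-04, edgeR) in nontreated and 2.01 (SE 0.27, adjusted p = 1.74e-04) in treated cells, and it stayed between 1.64 and 2.19 when any 1 library was left out.

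Tgfbr3 (ENSMUSG00000029287, chr5:107106570-107289629), or betaglycan, a co-receptor that presents TGF-β to Tgfbr2, was at 1.18, 1.98 and 2.59 TPM in Q7-C, 4.49, 1.33 and 3.66 in Q7-T, 17.6, 21.5 and 24.5 in Q111-C, and 30.1, 18.6 and 31.2 in Q111-T. The lowest STHdhQ111 library was well above the highest STHdhQ7 library. Its log2 fold change was 3.19 (SE 0.28, adjusted p = 1.01e-05) in nontreated and 2.75 (SE 0.28, adjusted p = 2.14e-05) in treated cells. In Q7-T vs. Q7-C it was 0.85 (SE 0.26, adjusted p = 0.108), and 1.09 (adjusted p = 0.0112) without Q7-T replicate 2.

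Tgfbr1 (chr4:47353222-47414931), the type I kinase that phosphorylates Smad2 and Smad3, was at 7.84 ± 3.87 TPM in Q7-C and 4.64 ± 2.13 in Q7-T, against 6.66 ± 0.729 in Q111-C and 6.75 ± 1.67 in Q111-T (mean ± SD of 3 libraries), and the lines overlapped in both conditions. Its log2 fold changes between the lines were -0.49 (SE 0.27, adjusted p = 0.244) and 0.20 (SE 0.27, adjusted p = 0.592). None of the 3 receptors was called after treatment in either line, with log2 values from -0.61 to 0.85. The summed receptor TPM was 15.7 to 36.7 in Q7-C and 7.50 to 25.0 in Q7-T, against 88.5 to 105 in Q111-C and 67.8 to 96.0 in Q111-T.

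Among the BMP and GDF ligands, Bmp4 was lower and Gdf15 higher in STHdhQ111 cells, and Gdf15 rose about 20-fold on treatment in STHdhQ111 cells. Bmp4 (ENSMUSG00000021835, chr14:46383520-46390669), a ligand known for dorsal patterning and glial fate in the nervous system, was at 22.5, 20.3 and 22.7 TPM in Q7-C, 16.4, 21.7 and 18.6 in Q7-T, 3.91, 6.08 and 4.13 in Q111-C, and 1.86, 2.09 and 2.32 in Q111-T. The ranges of the lines were far apart. Its log2 fold change was -2.55 (SE 0.32, adjusted p = 1.34e-04, edgeR) in nontreated and -3.65 (SE 0.34, adjusted p = 1.18e-05) in treated cells. Treatment lowered it in STHdhQ111 cells by -1.05 (SE 0.31, adjusted p = 0.0351), a call that did not hold without any 1 of the 6 libraries compared, with values from -0.87 to -1.18 and adjusted p from 0.0515 to 0.13, nor under limma on log2(TPM + 0.5) or log2(TPM + 1), where it was under 2-fold.

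Gdf15 (ENSMUSG00000038508, chr8:70629393-70632456), a distant member of the family that is secreted by stressed cells and signals through Gfral rather than through a Smad-coupled receptor, was at 2.88, 2.49 and 2.29 TPM in Q7-C and 2.65, 2.77 and 2.09 in Q7-T. In STHdhQ111 cells it was at 12.4, 11.5 and 10.5 TPM in Q111-C and 210, 249 and 182 in Q111-T. No library of one STHdhQ111 group came near the other, and the STHdhQ7 groups overlapped. The log2 fold change after treatment was 4.34 in STHdhQ111 (SE 0.34, adjusted p = 4.29e-06, 20.3-fold) and 0.18 in STHdhQ7 (SE 0.31, adjusted p = 0.846). The interaction was 4.16 (SE 0.44, adjusted p = 3.99e-04), and the lines differed by 1.81 (SE 0.31, adjusted p = 0.00123) in nontreated and 5.97 (SE 0.37, adjusted p = 6.88e-07) in treated cells. Of the summed BMP and GDF ligand TPM, Gdf15 made up 5.39% to 7.92% in Q7-C and 5.51% to 7.68% in Q7-T, against 35.9% to 43.0% in Q111-C and 89.4% to 94.6% in Q111-T, whereas Bmp4 made up 52.3% to 61.9% in Q7-C and 0.794% to 1.13% in Q111-T.

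The remaining BMP and GDF ligands were at low levels, apart from Gdf11 at 10.2 to 11.7 TPM on average in every group. Bmp7 (ENSMUSG00000008999) was at 0, 0.0268 and 0.0787 TPM in Q7-C, 0, 0 and 0.0279 in Q7-T, 1.03, 1.21 and 1.32 in Q111-C, and 1.19, 0.671 and 0.898 in Q111-T. In treated cells it was at least 8.79-fold higher in STHdhQ111, with Q7-T at or under the floor of 3 read pairs in each library, and the fitted difference in nontreated cells was 4.78 (SE 0.94, adjusted p = 0.00321), and 6.11 without Q7-C replicate 3. Under limma on log2(TPM + 1) the difference in treated cells was 0.919, under 2-fold. Without Q7-T replicate 3 no read remained in Q7-T, and the fitted difference moved from 5.92 to 9.93, a value that rests on the prior count.

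Bmp8a and Bmp8b are related genes on the same chromosome, and each overlaps a gene on its own strand (Oxct2a and Oxct2b), so the assignment of reads to them is uncertain. Bmp8b also overlaps Ppie on the other strand, which was at 46.2 to 57.7 TPM on average. Bmp8a was at 5.04, 1.18 and 4.51 TPM in Q111-T and at or below 0.377 in every other library, a pattern that the expression minimum itself selects (Q111-T vs. Q111-C 4.13, SE 0.96, adjusted p = 0.0102, and 4.83 without Q111-C replicate 2, and Q111-T vs. Q7-T 4.59, SE 0.99, adjusted p = 0.00388). In Q111-C vs. Q7-C the Bmp8a difference was 2.93 (SE 1.09, adjusted p = 0.0779), and 7.02 (adjusted p = 0.0135) without Q7-C replicate 2, the 1 Q7-C library with any count. Bmp8b was at 1.04, 1.76 and 2.02 TPM in Q7-C and 1.56, 0.850 and 1.87 in Q7-T, against at most 0.109 in STHdhQ111 libraries. It was lower in Q111-C by -4.58 (SE 0.85, adjusted p = 0.00209) and at least 18.8-fold lower in Q111-T. Without Q111-T replicate 3, the 1 library of that group with a Bmp8b count, the fitted differences moved to -10.91 against Q7-T and -6.37 against Q111-C (adjusted p = 0.00506), and the interaction to -6.36 (adjusted p = 0.0262), against -1.92 for each of the last pair in the fit of all libraries.

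Gdf5, a ligand of joint and limb development, was at 0.400 ± 0.142 TPM in Q7-C and 1.17 ± 0.236 in Q111-C (SD, n = 3), a log2 fold change of 1.21 (SE 0.40, adjusted p = 0.0494). The Gdf5 call did not hold without Q7-C replicate 1, 2 or 3, Q111-C replicate 1, 2 or 3, or Q111-T replicate 1 or 3, with adjusted p from 0.0553 to 0.138, nor under limma on log2(TPM + 0.5) or log2(TPM + 1), where it was under 2-fold. In Q7-T vs. Q7-C Gdf5 gave 1.52 (SE 0.40, adjusted p = 0.054), and 1.76 (adjusted p = 0.0337) without Q7-T replicate 1. Bmp1, the tolloid protease that shares only its name with the ligands and cleaves chordin and procollagen, was at 27.1 to 37.0 TPM on average and was not called in any comparison, nor was Gdf11.

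**Figure D3:**
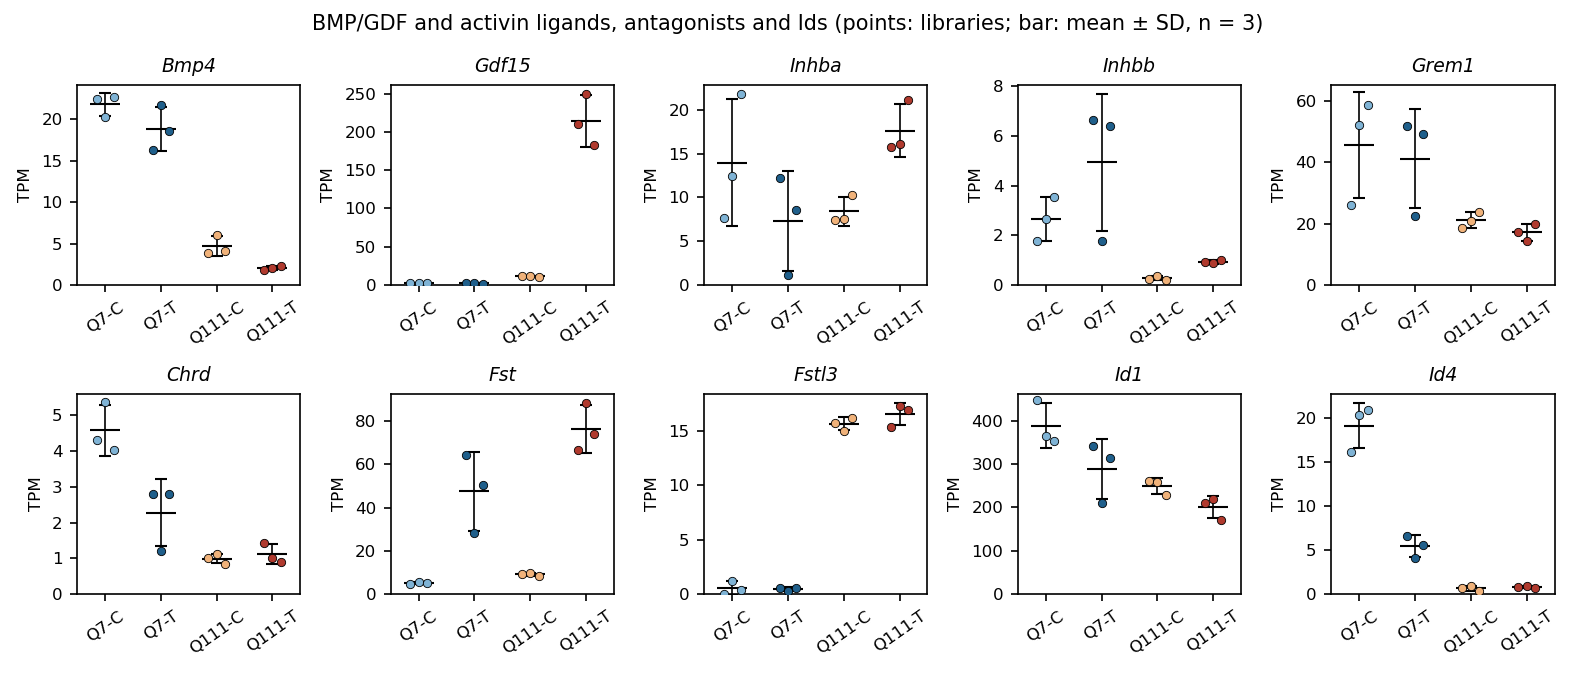
TPM (y axis, linear, from 0) of BMP and GDF ligands, activin subunits, secreted antagonists and Ids in each library (points), by group, with the mean and SD of the 3 libraries (bars). Gdf15 reaches 182 to 249 TPM in Q111-T and stays below 13 in every other library, Fst rises in both lines, and Id4 is near 0 in both STHdhQ111 groups.

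Of the activin and inhibin subunits, Inhbb was lower in STHdhQ111 cells and Inha was higher in treated STHdhQ111 cells. Inhbb (ENSMUSG00000037035, chr1:119415465-119422248), the βB subunit of activin B, was at 1.79, 2.65 and 3.55 TPM in Q7-C, 6.64, 1.77 and 6.41 in Q7-T, 0.239, 0.358 and 0.221 in Q111-C, and 0.934, 0.869 and 1.02 in Q111-T. It was lower in STHdhQ111 by -3.56 (SE 0.35, adjusted p = 2.54e-05, edgeR) in nontreated and -2.67 (SE 0.34, adjusted p = 1.04e-04) in treated cells. Treatment raised it in STHdhQ111 cells by 1.88 (SE 0.34, adjusted p = 0.00216), a call that was not made under limma on log2(TPM + 0.5) or log2(TPM + 1), with 0.90 and 0.61 and an adjusted p of up to 0.266. In STHdhQ7 the value was 0.99 (SE 0.32, adjusted p = 0.121), and 1.29 (adjusted p = 0.00707) without Q7-T replicate 2, which at 1.77 TPM lay below the Q7-C range. The interaction for Inhbb was not called (0.89, SE 0.45, adjusted p = 0.31). Its promoter, shown above, holds the ISRE letters, as 2 of the 55 member promoters do.

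Inha, the inhibin α subunit, was at 16.6, 15.5 and 13.2 TPM in Q111-T and between 3.39 and 5.21 in Q7-T, a log2 fold change of 1.45 (SE 0.34, adjusted p = 0.00587), while in nontreated cells it was 0.36 (SE 0.33, adjusted p = 0.514). Inhba, the βA subunit of activin A, was at 7.65, 12.4 and 21.8 TPM in Q7-C, 12.3, 1.11 and 8.52 in Q7-T, 7.38, 7.57 and 10.3 in Q111-C, and 15.7, 16 and 21.1 in Q111-T. All Q111-T libraries were above all Q111-C libraries, but the spread in STHdhQ7 was wide and Inhba was not called in any comparison (Q111-T vs. Q111-C 1.17, SE 0.51, adjusted p = 0.149). Without Q7-T replicate 2 the treatment effect in STHdhQ111 was 1.16 (adjusted p = 0.00691) and the interaction 1.57 (adjusted p = 0.0325), against 2.04 (adjusted p = 0.134) with it. Without Q7-T replicate 1, Inhba in Q111-T vs. Q7-T moved from 1.05 (adjusted p = 0.124) to 1.55 (adjusted p = 0.0444).

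Of 9 BMP and activin receptors 6 were tested, and Acvrl1 was the 1 receptor of these that was called. Acvrl1 (ENSMUSG00000000530, chr15:101128522-101145336), or ALK1, a type I receptor best known from endothelium, was at 0.0595, 0.164 and 0.117 TPM in Q7-C, 0.139, 0.141 and 0.0992 in Q7-T, 0.914, 0.612 and 0.583 in Q111-C, and 1.78, 1.97 and 2.28 in Q111-T. Its level was low in all groups and reached the expression minimum in STHdhQ111 alone. The log2 fold change was 2.35 (SE 0.41, adjusted p = 0.00137) and 3.48 (SE 0.42, adjusted p = 8.08e-05) between the lines and 1.61 (SE 0.39, adjusted p = 0.0124) after treatment in STHdhQ111. The last call did not hold without Q111-C replicate 2 (1.48, adjusted p = 0.0658) or replicate 3 (1.46, adjusted p = 0.065). Under limma on log2(TPM + 0.5) or log2(TPM + 1) the difference between nontreated lines was 0.965 or 0.609, under 2-fold, and the treatment call was also lost on log2(TPM + 1). The summed TPM of 3 endothelial markers was at most 1.37 in any library, and its part in the result was not tested.

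Bmpr1a was the most abundant receptor of this group, at 25.5 ± 9.43 TPM in Q7-C and 18.2 ± 9.82 in Q7-T, against 37.7 ± 3.14 in Q111-C and 33.5 ± 3.29 in Q111-T (mean ± SD of 3 libraries), with log2 differences between the lines of 0.29 (adjusted p = 0.462) and 0.58 (adjusted p = 0.0816). Bmpr2, the type II BMP receptor, was at 5.85 ± 2.75, 3.61 ± 1.10, 6.61 ± 0.376 and 7.96 ± 1.49 TPM in Q7-C, Q7-T, Q111-C and Q111-T, and its difference in treated cells passed the p threshold below 2-fold (0.76, SE 0.22, adjusted p = 0.019). Its interaction was 0.84 (adjusted p = 0.16), and 1.06 (adjusted p = 0.0235) without Q7-C replicate 1. Acvr1 was at 6.91 to 11.5 TPM on average, Acvr1b at 8.16 to 15.3 and Acvr2a at 3.73 to 6.57, and these were not called in any comparison. Acvr2a overlaps Orc4 on the other strand, which was at 11.2 to 19.1 TPM on average.

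The secreted antagonists held the 1 member that rose on treatment in both lines, follistatin. Fst (ENSMUSG00000021765, chr13:114452290-114458951), which binds activins tightly and several BMPs more weakly, was at 4.63, 5.43 and 5.23 TPM in Q7-C, 64.4, 28.1 and 50.4 in Q7-T, 9.23, 9.68 and 8.41 in Q111-C, and 66.8, 88.6 and 74.0 in Q111-T. Treated and nontreated libraries were far apart in each line. The log2 fold change was 3.34 in STHdhQ7 (SE 0.21, adjusted p = 1.03e-06, edgeR) and 3.19 in STHdhQ111 (SE 0.20, adjusted p = 1.09e-06), and the interaction was not called (-0.15, SE 0.27, adjusted p = 0.804). Between the lines the values were 0.51 (SE 0.19, adjusted p = 0.0775) and 0.36 (SE 0.19, adjusted p = 0.155).

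Fstl3 (ENSMUSG00000020325, chr10:79777272-79782630), the follistatin-like activin and myostatin inhibitor, distinguished the lines and not the treatment. It was at 0, 1.22 and 0.412 TPM in Q7-C, 0.597, 0.270 and 0.530 in Q7-T, 15.7, 15.0 and 16.2 in Q111-C, and 15.4, 17.3 and 16.9 in Q111-T. On the log2 scale the lines differed by 4.64 (SE 0.86, adjusted p = 0.00217) and 4.79 (SE 0.87, adjusted p = 0.00135) in nontreated and treated cells (the first was 6.02 without Q7-C replicate 2), and the treatment values were 0.05 and 0.19 (adjusted p = 0.99 and 0.917). Fstl1, a matrix glycoprotein of the same family and the most abundant antagonist-group member at 138 to 294 TPM on average, was not called. Its value in Q111-T vs. Q111-C passed the p threshold below 2-fold (0.69, SE 0.14, adjusted p = 0.00508).

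Grem1 and Chrd, which trap BMPs, were lower in STHdhQ111 cells. Grem1 (ENSMUSG00000074934, chr2:113746164-113758646) was at 26.1, 52.2 and 58.6 TPM in Q7-C, 51.9, 22.5 and 49.2 in Q7-T, 18.6, 21 and 23.7 in Q111-C, and 17.3, 14.5 and 19.9 in Q111-T, with no overlap of the lines within a condition. On the log2 scale the differences were -1.38 (SE 0.20, adjusted p = 3.48e-04) and -1.60 (SE 0.20, adjusted p = 9.26e-05). Chrd (ENSMUSG00000006958, chr16:20733127-20742384) was at 4.30, 5.38 and 4.04 TPM in Q7-C, 2.81, 1.20 and 2.81 in Q7-T, 1.02, 1.11 and 0.844 in Q111-C, and 1.42, 1.01 and 0.896 in Q111-T. It was lower by -2.53 (SE 0.26, adjusted p = 3.04e-05) in nontreated and -1.36 (SE 0.25, adjusted p = 0.00139) in treated cells, where 1 library of each line overlapped. Under limma on log2(TPM + 0.5), log2(TPM + 0.1) or log2(TPM + 1) neither the Grem1 call in nontreated cells nor the Chrd call in treated cells was made. There Grem1 stayed past 2-fold, at -1.003 to -1.032 with an adjusted p of up to 0.0619, while Chrd was under 2-fold, at -0.596 to -0.902. Chrd overlaps Thpo on the other strand, whose TPM was also lower in STHdhQ111 (2.87 ± 0.111 in Q7-C and 1.06 ± 0.128 in Q111-C, SD, n = 3). The libraries were stranded, but the strand setting of the counting is not given in the sources used here, so reads of such overlapping pairs cannot be told apart. The ligand Bmp4 and its antagonists Grem1 and Chrd were thus all lower in STHdhQ111 cells in both conditions.

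Of the 8 Smads tested, which carry the signal to the nucleus, Smad9 was the 1 that was called. Smad9 (ENSMUSG00000027796, chr3:54755582-54801257) was at 1.12, 1.89 and 2.65 TPM in Q7-C, 1.46, 0.873 and 1.53 in Q7-T, 6.10, 5.94 and 6.37 in Q111-C, and 3.31, 2.81 and 2.45 in Q111-T. All Q111-C libraries were above all others. Its log2 fold change in Q111-C vs. Q7-C was 1.43 (SE 0.22, adjusted p = 6.30e-04, edgeR) and in Q111-T vs. Q7-T 0.78 (SE 0.22, adjusted p = 0.016). After treatment in STHdhQ111 it was -0.996 (SE 0.22, adjusted p = 0.00777), just short of 2-fold, and it passed the limit without Q7-C replicate 2 or 3, Q111-C replicate 1 or 2, or Q111-T replicate 1 or 2, with values from -1.005 to -1.101.

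The TGF-β and activin Smads were not called in any comparison. Smad2 was at 9.37 to 13.5 TPM on average and Smad3 at 15.5 to 22.6, with log2 differences between the lines from -0.28 to 0.03. Smad4, the common partner, was at 23.6 ± 8.56 TPM in Q7-C and 17.5 ± 9.02 in Q7-T, against 28.4 ± 1.87 in Q111-C and 27.8 ± 3.72 in Q111-T (mean ± SD of 3 libraries), with log2 differences of 0.00 (adjusted p = 0.999) and 0.36 (adjusted p = 0.236) between the lines. The BMP Smads Smad1 and Smad5 gave 0.04 and 0.10 in nontreated and 0.66 (adjusted p = 0.0694) and -0.12 (adjusted p = 0.688) in treated cells. Smad1 reached 1.01 (adjusted p = 0.00818) in Q111-T vs. Q7-T without Q7-T replicate 1.

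Both inhibitory Smads, which are themselves induced by the pathway, were also below the call. Smad6 was at 16.6 ± 1.35 TPM in Q7-C and 11.5 ± 2.99 in Q7-T, against 17 ± 0.995 in Q111-C and 11.4 ± 1.06 in Q111-T, with treatment values of -0.40 (adjusted p = 0.382) and -0.47 (adjusted p = 0.135). Smad7 was at 5.59, 5.70 and 5.69 TPM in Q111-C and 8.77, 8.06 and 7.58 in Q111-T, and its treatment value in STHdhQ111 passed the p threshold below 2-fold (0.63, SE 0.20, adjusted p = 0.0494). In Q111-T vs. Q7-T Smad7 gave 0.65 (SE 0.20, adjusted p = 0.0252). Its interaction was 0.98 (SE 0.28, adjusted p = 0.0723), and 1.13 (adjusted p = 0.0435) without Q7-T replicate 1.

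**Figure D4:**
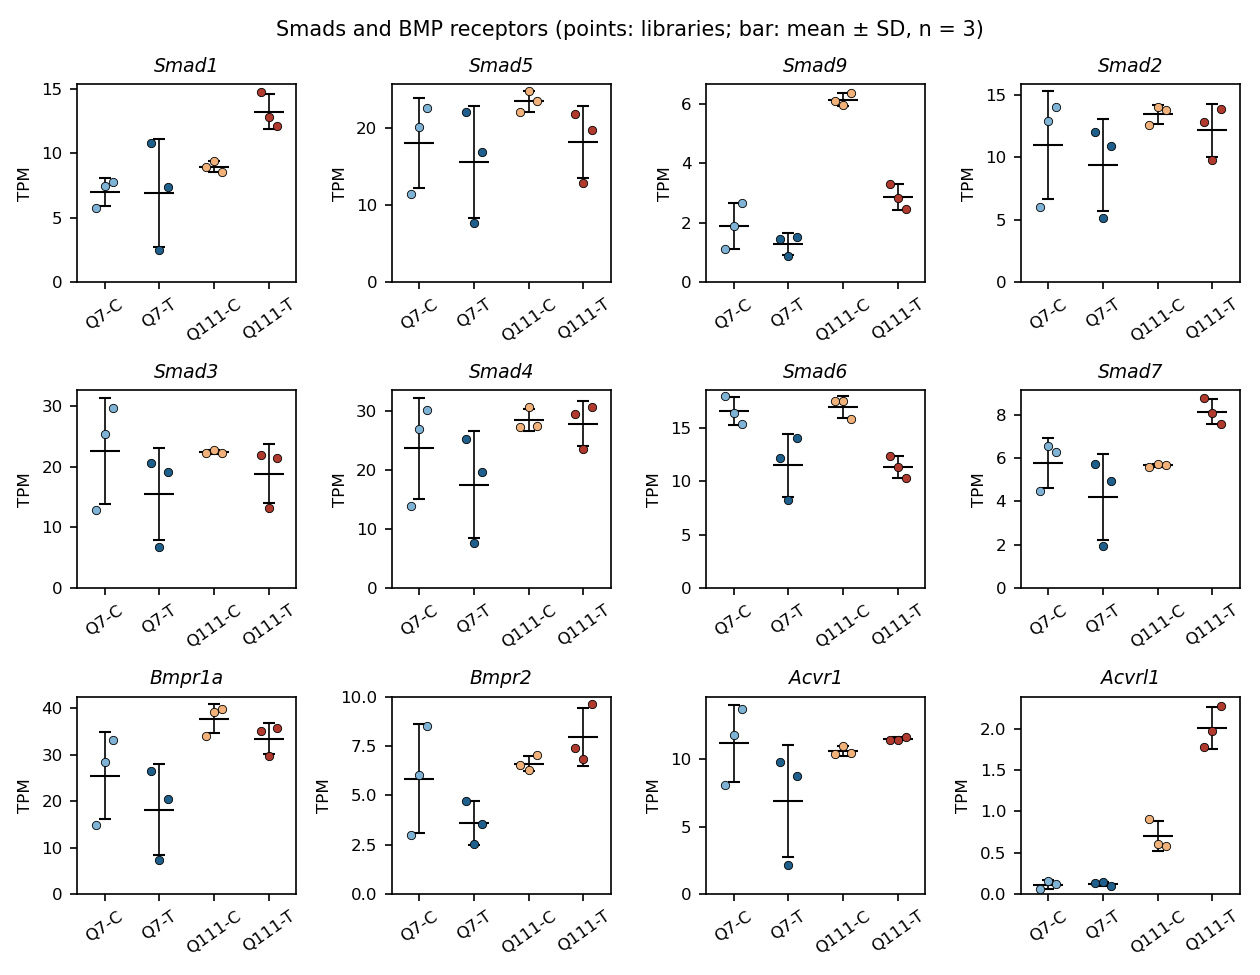
TPM (y axis, linear, from 0) of the 8 Smads and 4 BMP-binding receptors in each library (points), by group, with the mean and SD of the 3 libraries (bars). Q7-T replicate 2 is the lowest point of its group for most of these genes, Smad9 is highest in Q111-C at 5.94 to 6.37 TPM, and Acvrl1 stays below 0.2 TPM in STHdhQ7.

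Of the Ids, inhibitors of basic helix-loop-helix factors, Id4 was lower in STHdhQ111 and responded to treatment in STHdhQ7, while Id2 and Id3 were not called. Id4 (ENSMUSG00000021379, chr13:48261228-48266026), which is known from neural progenitors and astrocytes, was at 16.2, 20.4 and 20.9 TPM in Q7-C, 6.63, 4.09 and 5.64 in Q7-T, 0.731, 0.953 and 0.380 in Q111-C, and 0.843, 0.950 and 0.671 in Q111-T. The 3 levels, Q7-C above Q7-T above the STHdhQ111 groups, did not overlap, and Q111-C and Q111-T did. The log2 fold change was -5.11 (SE 0.33, adjusted p = 1.08e-06, edgeR) in nontreated and -3.09 (SE 0.31, adjusted p = 1.93e-05) in treated cells. Treatment lowered Id4 in STHdhQ7 by -1.64 (SE 0.28, adjusted p = 0.00457), and in STHdhQ111 the value was 0.38 (SE 0.29, adjusted p = 0.45). The interaction was called (2.02, SE 0.41, adjusted p = 0.0137), and these Id4 calls held with each library left out in turn. Its promoter, shown above, holds the GGCGCC letters.

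Id1 (ENSMUSG00000042745, chr2:152736251-152737410) and Id3 had the highest mean TPM of the members in Q7-C, Q7-T and Q111-C, while in Q111-T Fstl1 and Gdf15 were above Id1. Id1 was at 449, 365 and 353 TPM in Q7-C, 343, 211 and 315 in Q7-T, 262, 258 and 229 in Q111-C, and 210, 221 and 171 in Q111-T. It was called lower in Q111-C vs. Q7-C at the 2-fold limit (-1.003, SE 0.23, adjusted p = 0.00697), and the call was lost in 18 of 23 alternative settings. The Id1 value was -0.69 without Q7-C replicate 1, and it was between -0.90 and -0.99 without Q7-T replicate 2, Q111-C replicate 2 or 3, or any 1 Q111-T library. In treated cells Id1 gave -0.90 (SE 0.23, adjusted p = 0.00885), and -1.06 (adjusted p = 0.00835) without Q111-T replicate 2.

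Id3 was at 293 ± 61.0, 282 ± 69.7, 382 ± 8.29 and 309 ± 49.5 TPM in Q7-C, Q7-T, Q111-C and Q111-T, and Id2 at 33.6 ± 2.64, 21.8 ± 10.5, 35.9 ± 2.44 and 37.4 ± 12.9 (SD, n = 3). Their log2 differences lay between -0.56 and 0.51 in the pairwise comparisons, with adjusted p of 0.222 or more. Id1 made up 52.1% to 54.8% of the summed Id TPM in Q7-C and 36.0% to 38.1% in Q111-C, and Id3 37.1% to 41.7% and 56.4% to 58.7%, so their order in abundance was opposite in the nontreated lines.

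**Figure D5:**
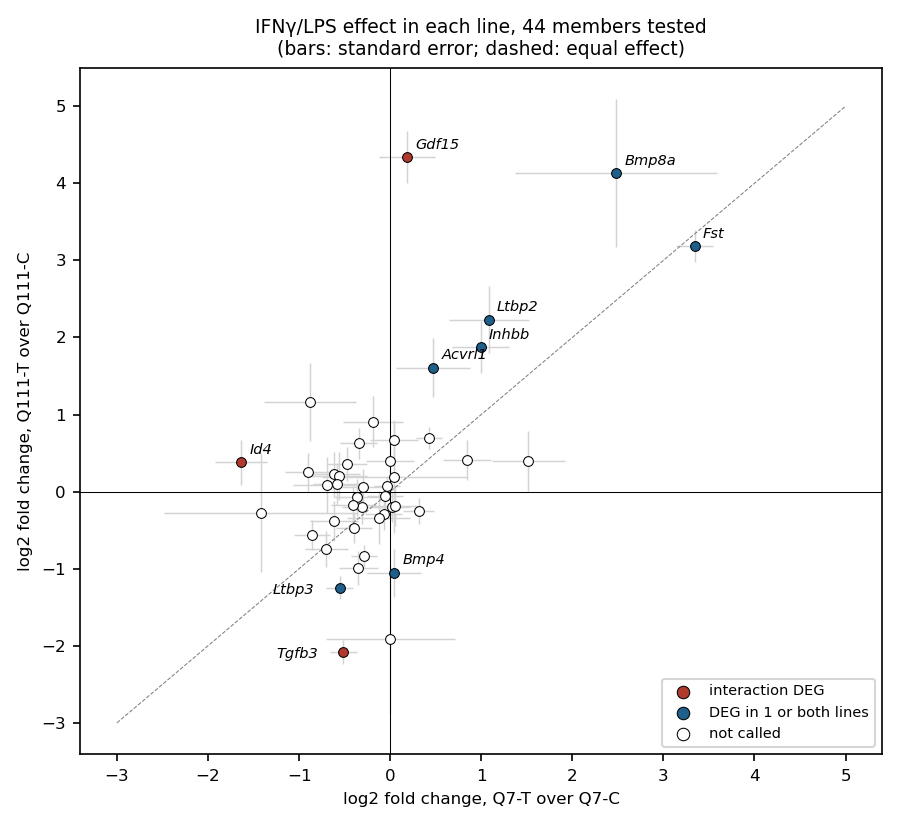
Log2 fold change after IFNγ/LPS in STHdhQ7 (x axis) and STHdhQ111 (y axis) for the 44 members tested, with standard errors, where the dashed line marks an equal effect. Fst lies near the dashed line at 3.34 and 3.19, and the interaction DEGs Gdf15 (0.18 and 4.34), Id4 (-1.64 and 0.38) and Tgfb3 (-0.52 and -2.08) lie away from it.

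Across the 4 pairwise comparisons, 24 of the 44 members were a DEG at least once and 20 were not, where 32.2% of all genes tested were. There were 9 members higher in STHdhQ111 in both conditions (Acvrl1, Bmp7, Fstl3, Gdf15, Ltbp1, Ltbp2, Tgfb2, Tgfbr2 and Tgfbr3) and 7 lower in both (Bmp4, Bmp8b, Chrd, Grem1, Id4, Inhbb and Ltbp4), beside 5.93% and 5.04% of all genes tested. Without the members that reached the expression minimum in 1 line alone (Acvrl1, Bmp7 and Bmp8b among those named), 7 and 6 of 40 were so. The 17 members not tested included Acvr1c, Acvr2b, Bmp2, Bmp3, Bmp5, Bmp6, Bmp10, Bmpr1b, Gdf1, Gdf2, Gdf6, Gdf7, Gdf9, Gdf10, Inhbe and Nog. Of the 17, 9 (among them Bmp3, Bmp5, Bmp10, Gdf2, Gdf6, Gdf7, Gdf10 and Inhbe) had at most 3 read pairs in every library, and the highest value among the 17 was 2.82 TPM, for Gdf1, which overlaps Cers1 on the same strand. Bmp2 was at 0.200 to 0.524 TPM in the STHdhQ7 libraries and had no count in any STHdhQ111 library, a difference that was not tested.

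Without Q7-C replicate 1, Q7-T replicate 2 and Q111-T replicate 2 together, a setting chosen after seeing the data, 9 members were higher and 8 lower between nontreated lines, 11 and 8 between treated lines, 3 and 1 after treatment in STHdhQ7, 7 and 4 after treatment in STHdhQ111, and 6 and 1 in the interaction. Over all 16127 genes this setting gave 1416 higher and 1316 lower, 2240 and 1454, 522 and 291, 1560 and 650, and 1170 and 418 in the same order, so the calls in the interaction rose over all genes as well (from 567 and 193). In that setting Tgfb2 (0.93), Ltbp1 (0.99) and Id1 (-0.69) in Q111-C vs. Q7-C fell under 2-fold. Inhba (-1.19 between nontreated lines, 1.16 on treatment of STHdhQ111 and 1.80 in the interaction), Smad9 (-1.06) on treatment of STHdhQ111, Id1 (-1.01) between treated lines, Inhbb (1.16) and Ltbp2 (1.45) on treatment of STHdhQ7, and the interactions of Acvrl1 (1.68), Bmpr2 (1.12) and Ltbp2 (1.002) were called there.

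Other genes of the pathway were taken from 3 lists. Of 22 extracellular regulators tested, 5 were higher and 4 lower between nontreated lines, 6 and 5 between treated lines, 1 and 1 after treatment in STHdhQ7, 2 and 3 after treatment in STHdhQ111, and 2 and 2 in the interaction. As shares these were 22.7% and 18.2% between nontreated lines (all genes 7.62% and 7.61%), 27.3% and 22.7% between treated lines (13.3% and 11.2%), 4.55% and 4.55% in treated STHdhQ7 (2.93% and 1.11%), 9.09% and 13.6% in treated STHdhQ111 (8.28% and 2.96%), and 9.09% and 9.09% in the interaction (3.52% and 1.2%). Of these 22, Chrdl1, Fbn2, Itgb8, Nrros and Tll1 reached the expression minimum in 1 line alone, so the filter selected them for a difference. Without them 4 of 17 were higher and 2 lower between nontreated lines (23.5% and 11.8%), 4 and 3 between treated lines (23.5% and 17.6%), 1 and 0 in treated STHdhQ7, 2 and 2 in treated STHdhQ111, and 2 and 1 in the interaction. Bgn (biglycan, a matrix proteoglycan that binds TGF-β) was at 8.61 ± 1.80 TPM in Q7-C and 456 ± 10.1 in Q111-C (log2 fold change 5.37, SE 0.25, adjusted p = 1.26e-07, edgeR). Lrrc32 (GARP, which docks latent TGF-β on the cell surface) was higher by 5.30 in nontreated (SE 0.29, adjusted p = 3.16e-07) and treated cells (SE 0.29, adjusted p = 3.78e-07), and Fbn2 (fibrillin 2, a microfibril protein) by 7.53 (SE 0.39, adjusted p = 2.04e-07) in nontreated cells. Fbn2 reached the minimum in the Q111-C libraries alone, so the filter selected it for a difference of Q111-C from each other group, its fall on treatment and its interaction included. Lrrc32 reached it in 1 Q7-T library and no Q7-C library, so it needed STHdhQ111 libraries to pass. The filter thus selected Lrrc32 for its difference between the lines as well, and it remains among the 17 genes above.

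After treatment of STHdhQ111 Fbn2 fell by 4.32 on the log2 scale, from 8.48 ± 1.66 to 0.403 ± 0.159 TPM (adjusted p = 3.29e-06). Dcn (decorin, a TGF-β binding proteoglycan) rose after treatment in both lines, by 2.80 (SE 0.26, adjusted p = 3.58e-05) and 2.00 (SE 0.25, adjusted p = 1.82e-04). Of the BMP modulators, Bmper and Chrdl1 were lower in STHdhQ111, by -4.25 and -4.68 in nontreated cells (adjusted p = 1.50e-06 and 0.00105) and by -2.78 and -3.55 in treated cells (adjusted p = 1.67e-05 and 0.00486). The last value was -2.90 without Q111-T replicate 1 and -4.58 without Q111-T replicate 2. Chrdl1 reached the minimum in the Q7-C libraries alone, so its differences from Q7-C are what the filter selects. Bmper rose on treatment by 2.42 (SE 0.27, adjusted p = 7.82e-05) in STHdhQ111, and Chrdl1 gave -2.98 (SE 0.72, adjusted p = 0.0341) in STHdhQ7, a call kept in 4 of the 12 fits that leave out 1 library. The interaction was called for Fbn2 (-4.41, SE 0.47, adjusted p = 3.93e-04), Itgav (the αv integrin, 1.99, SE 0.52, adjusted p = 0.046, kept in 3 of 12 such fits), Bmper (1.47, SE 0.37, adjusted p = 0.0382, kept in 5 of 12) and Emilin1 (an inhibitor of TGF-β processing, -1.71, SE 0.26, adjusted p = 0.00308). Tll1, a tolloid protease, was at 0.679, 0.345 and 0.811 TPM in Q111-T and at or under the floor of 3 read pairs in each Q7-T library.

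Of 22 intracellular regulators tested, 1 was higher and 3 lower between nontreated lines, 3 and 1 between treated lines, 0 and 0 after treatment in STHdhQ7, 1 and 0 in STHdhQ111, and 1 and 0 in the interaction. The shares were 4.55% and 13.6% between nontreated and 13.6% and 4.55% between treated lines, and 4.55% higher in treated STHdhQ111 and in the interaction, beside the same shares of all genes. Sptbn1 (a spectrin that acts as a Smad adaptor) was higher in STHdhQ111 by 1.56 (SE 0.32, adjusted p = 0.00431) and 1.93 (SE 0.33, adjusted p = 8.28e-04). Bambi (a decoy receptor, -2.23, SE 0.51, adjusted p = 0.00795) and Pmepa1 (a Smad inhibitor, -1.09, SE 0.13, adjusted p = 1.20e-04) were lower in Q111-C, and in treated cells Smurf2 was higher (1.45, SE 0.33, adjusted p = 0.0051) and Hipk2 lower (-1.20, SE 0.26, adjusted p = 0.00367). Bambi reached the expression minimum in each Q7-C library, but only in 1 Q7-T, 1 Q111-T and no Q111-C library. It passed the filter through Q7-C, so its lower value in Q111-C, counted among the 3 above, is what the filter selects. Skil, a Smad co-repressor, rose on treatment in STHdhQ111 from 6.05 ± 0.709 to 16.2 ± 3.25 TPM (1.51, SE 0.27, adjusted p = 0.0022), and its interaction was 1.67 (SE 0.38, adjusted p = 0.0246), kept in 4 of the 12 fits that leave out 1 library.

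Of 25 target genes tested, 5 were higher and 7 lower between nontreated lines, 8 and 6 between treated lines, 1 and 3 after treatment in STHdhQ7, 5 and 4 after treatment in STHdhQ111, and 5 and 2 in the interaction. The shares were 20.0% and 28.0% between nontreated lines, 32.0% and 24.0% between treated lines, 4.0% and 12% in treated STHdhQ7, 20.0% and 16% in treated STHdhQ111, and 20.0% and 8.0% in the interaction, beside the shares of all genes given for the extracellular regulators. The median log2 fold changes between nontreated and between treated lines were -0.07 and -0.27 for the extracellular regulators, -0.23 and -0.19 for the intracellular regulators and -0.52 and 0.08 for the targets (all genes -0.02 and -0.03). The contractile genes Acta2 and Tagln were lower in STHdhQ111, with Acta2 at 1670 ± 106 TPM in Q7-C and 43.7 ± 16.8 in Q111-C (-5.59, SE 0.35, adjusted p = 7.97e-07) and Tagln at -5.44 (SE 0.46, adjusted p = 7.95e-06). The collagen gene Col1a2 was higher in Q111-C by 3.81 (SE 0.18, adjusted p = 1.26e-07) and fell on treatment in both lines, by 1.65 (adjusted p = 5.70e-05) and by 2.56 (adjusted p = 1.27e-06) on the log2 scale.

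Acta2, Col1a1 and Col1a2 are also among the mesenchymal markers. Treatment lowered Ccn2, a matrix-associated growth factor (-1.66, SE 0.25, adjusted p = 0.00169), and Col1a1 (-1.45, SE 0.14, adjusted p = 4.30e-05) in STHdhQ7. In STHdhQ111 it raised the cell cycle inhibitor Cdkn1a (3.65, SE 0.14, adjusted p = 7.97e-08) and the AP-1 subunit Junb (2.76, SE 0.27, adjusted p = 2.27e-05), and the interaction was called for Cdkn1a (3.38, SE 0.18, adjusted p = 1.00e-05), Junb (2.00, SE 0.36, adjusted p = 0.00781) and the Notch and BMP target Hey1 (2.03, SE 0.34, adjusted p = 0.00519). Hey1 was also lower in Q111-C vs. Q7-C by -4.17 (SE 0.27, adjusted p = 9.32e-07). Genes counted as targets of one pathway thus lay on both sides between the lines, and many of them respond to other signals as well.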

How the data were processed

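Stranded TruSeq libraries of poly(A) RNA were read as pairs. The authors trimmed reads with Cutadapt, mapped them to GRCm38 with HISAT2 and assembled and quantified transcripts with StringTie and Ballgown. The authors deposited a table with TPM per gene and library and estimated counts (whole numbers, not normalized). TPM values sum to 688352 to 719623 per library. What 1 estimated count stands for is not given in the sources used here. Low counts are more frequent at 4 and its multiples than at the values between, so 1 read pair was taken as 4 counts, an inference, and 12 counts (3 read pairs) as the floor, which covers counting error only.

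Groups came from the labels. The 16127 genes that reached 0.5 TPM in 3 or more libraries entered the quasi-likelihood test of edgeR 4.0.16 (R 4.3.3) on the counts with TMM scaling, all 12 libraries and a mean per group, with Benjamini-Hochberg adjustment over all genes tested. The standard error is the log2 fold change divided by the root of F. An exact permutation test of 3 against 3 cannot go below p = 0.1 and was not used. On simulated data with 200 changed genes of 16127, the test made 139 calls in Q111-T vs. Q7-T, 132 of them right, 131 (125 right) in Q111-T vs. Q111-C, 89 (84 right) in the interaction, and 0 in the unchanged comparisons. In that order, 51, 46 and 18 right calls were genes changed by 1.5 on the log2 scale, and 81, 79 and 66 by 3. The simulated counts were independent, with no library that stood apart and far fewer changed genes than were called here. Their share of right calls therefore does not carry over to the real data. Alternatives were DESeq2 1.42.0, limma 3.58.1 on log2(TPM + a pseudocount), RLE scaling, counts divided by 4, other filters, only the groups compared, the replicate number as a block, and leaving out libraries.

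The members and the lists were chosen with earlier results of these data known, and so were the rules: members that are a DEG are named with values, as are TGF-β ligands, receptors, Smads and Ids whatever their result, and from each list of other pathway genes the 3 DEGs with the largest change in a comparison. Marker lists covered neurons, striatal medium spiny neurons, astrocytes, macrophages and microglia, oligodendrocytes, endothelial and mesenchymal cells. Bcl11b (medium spiny neurons), Ptprc (leukocytes) and Mog (oligodendrocytes) were at or under the floor in every library, whereas other markers of these lists were not: in Q111-C Penk was at 4.93 TPM on average (0.143 in Q7-C; it entered the test through STHdhQ111 libraries alone) and Ppp1r1b at 1.12 (not called), and group means were 7.09 to 48.8 TPM for Cd68 and 3.14 to 18.7 for Tmem119. Cd68 rose on treatment of STHdhQ111 (1.81, adjusted p = 0.0053), and Tmem119 fell on treatment of both lines. Of the astrocyte markers, Slc1a3 was higher (3.18, adjusted p = 1.08e-05) and Aldh1l1 lower (-3.56, adjusted p = 0.0459, kept in 4 of the 12 fits that leave out 1 library, -9.06 without Q111-C replicate 3) in Q111-C vs. Q7-C, and on treatment of STHdhQ111 Slc1a3 fell by 1.75 and Aldh1l1 rose (5.13, and 4.54 to 10.64 with 1 library left out). Aldh1l1 reached the expression minimum only in the Q111-T libraries and 1 Q7-T library, so the filter selected it for its rise on treatment of STHdhQ111. The summed marker TPM ranged over all libraries as follows: neurons 8.71 to 86.3, medium spiny neurons 0.173 to 6.80, astrocytes 1.04 to 11.0, macrophages and microglia 11.9 to 62.5, oligodendrocytes 0.284 to 0.617 and endothelial cells 0.0173 to 1.37. All 61 member identifiers are in GENCODE M21 where 55 have identical start and end. Coordinates are those of the table. Some items are not reported here.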

Additional observations from a re-analysis of the deposited data

Results flagged for a closer look

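The effect of IFNγ/LPS differed between the lines for 3 members, by the interaction term of the edgeR fit (adjusted by Benjamini-Hochberg). For Gdf15 the treatment effect in STHdhQ111 exceeded that in STHdhQ7 by 4.16 on the log2 scale, with 182 to 249 TPM in Q111-T and 2.09 to 2.77 in Q7-T. For Id4 the difference was 2.02, with 16.2 to 20.9 TPM in Q7-C and 4.09 to 6.63 in Q7-T, against 0.380 to 0.953 in Q111-C and 0.671 to 0.950 in Q111-T. For Tgfb3 the difference was -1.56, from 47.9 to 54.6 TPM in Q111-C to 9.01 to 13.8 in Q111-T, and this call was not made under limma on log2(TPM + 0.5), log2(TPM + 0.1) or log2(TPM + 1), where the difference was -1.42 to -1.47 and the adjusted p up to 0.0809. No other member of the 44 tested was called in the interaction.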

How the results depend on the processing

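Of 51 member results that were called, 38 kept their call and direction under all alternatives run for them (23 for a pairwise comparison and 22 for the interaction, which has none with only the groups compared) and 13 lost it in at least 1; 0 reversed, and 24 of 169 not called were called in some alternative. Members raised in Q7-T vs. Q7-C numbered 1, against 2 with a minimum of 1 TPM, 2 with DESeq2, 2 with counts divided by 4, and 3 without the 3 libraries that stood apart. Members up in the interaction numbered 2, against 4 with DESeq2, 4 with limma on log2(TPM + 0.5), 4 on log2(TPM + 1), and 6 without those 3 libraries. The 1 member down in the interaction (Tgfb3) was 0 with limma on log2(TPM + 0.5), log2(TPM + 0.1) or log2(TPM + 1), where it was -1.42 to -1.47 and its adjusted p up to 0.0809. Limma on log2(TPM + 0.5) also ended the calls of Acvrl1, Gdf5, Grem1 and Id1 between the nontreated lines, Chrd between the treated lines, and Bmp4 and Inhbb on treatment of STHdhQ111, and limma on log2(TPM + 1) that of Bmp7 between the treated lines, all with their direction kept. The cause of these shifts was not tested.

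Leaving out each library in turn gave 8 to 12 members higher and 7 to 8 lower between the nontreated lines, 10 to 13 and 7 to 8 in Q111-T vs. Q7-T, 1 to 4 (4 without Q7-T replicate 2) and 1 to 1 in Q7-T vs. Q7-C, 5 to 7 and 2 to 4 in Q111-T vs. Q111-C, and 2 to 3 and 1 to 2 in the interaction (2 without Q111-T replicate 3). Over all genes, the interaction gave 567 up and 193 down, against 907 and 396 with DESeq2 and 1170 and 418 without the 3 libraries, and 373 to 725 and 138 to 274 with each library left out. Q7-T vs. Q7-C gave 472 up and 179 down, against 635 and 276 with DESeq2, 522 and 291 without the 3 libraries, 316 and 78 with only the groups compared, and 294 and 120 with limma on log2(TPM + 1), and 399 to 482 and 118 to 191 with each library left out. Those fits gave 1101 to 1380 up and 985 to 1350 down in Q111-C vs. Q7-C, 1922 to 2298 and 1409 to 2094 in Q111-T vs. Q7-T, and 1101 to 1449 and 401 to 563 in Q111-T vs. Q111-C.

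Limma on log2(TPM + 0.1) and log2(TPM + 1) gave 1770 and 870 and 1198 and 592 in Q111-C vs. Q7-C (edgeR 1229 and 1227), and 3265 and 937 and 2470 and 623 in Q111-T vs. Q7-T (2145 and 1814). Replicate numbers showed no clear pairing of the samples: the deviations of same-numbered libraries correlated between -0.416 and 0.303, and 6 of 18 pairs were over 0.1. With 3 libraries per group, some of which stood apart, such correlations cannot show whether same-numbered libraries were handled together. With the replicate block, 10 members were higher and 7 lower between the nontreated lines, where Gdf5 (1.18, adjusted p = 0.0913) and Id1 (-0.98, adjusted p = 0.00829) lost their call, and no other member call changed. No pair of libraries in a group differed by sampling noise alone (chi-square per degree of freedom of 5.06 or more). Depth limits Bmp7, Bmp8a and Bmp8b, which were at or under 3 read pairs in a group.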
